A study of Homo sapiens with 16 samples.

Results

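The genes described here are 37 members of the SREBP program of sterol and fatty acid synthesis, out of 23354 genes in the count table (0.158%). They were chosen by their known function, as a list of symbols that was looked up in the table, and no measured value entered the rule. The list was proposed with earlier results of these data known, so its counts and medians are given as descriptions, with no test of the list as a whole. All 37 symbols were present, and all 37 passed the filter on low counts, as did 14215 genes in all. They fall into 5 branches that share no gene: 7 of the mevalonate pathway, 11 of the path from squalene formation to cholesterol, 5 regulators, 5 of sterol transport and efflux, and 9 of fatty acid synthesis and desaturation.

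Total RNA depleted of ribosomal RNA was sequenced from 2 human multiple myeloma cell lines, MM1S, labelled glucocorticoid sensitive, and MM1R, labelled glucocorticoid resistant. Cells of each line received vehicle, 0.1 μM TAK-981, 1 μM dexamethasone (Dex) or both at those doses (combo), for 48 h in the 3 drug-treated groups, and each of the 8 groups had 2 libraries. TAK-981 inhibits the enzyme that activates SUMO, a small protein that is attached to other proteins. Dex is a glucocorticoid that acts through the glucocorticoid receptor. No genetic change or other agent is given for any group, and the vehicle cells are the untreated background of each line. Each line is a single line in culture, and nothing says whether the 2 libraries of a group came from separate cultures, so p-values measure the spread between these libraries, which may be technical.

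SREBPs are transcription factors that are made as precursors anchored in the membrane of the endoplasmic reticulum. SCAP escorts them to the Golgi, where they are cut and released, and when sterol is plentiful INSIG proteins hold SCAP and its cargo back. The released factors switch on the enzymes of cholesterol and fatty acid synthesis and the INSIG1 gene itself. A second sterol-sensing factor, LXR, switches on the exporters ABCA1 and ABCG1, the ubiquitin ligase MYLIP that removes lipoprotein receptors, and SREBF1.

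Because the factors act at promoters, the starts of the member genes were read from the RefSeq promoter table (GRCh38.p14, 250 bases before to 50 after each start), which held an entry for 32 of the 37 genes and 43 promoters of these. There was none for ACAT2, FASN, SQLE, FDFT1 and ABCG1. The stretches below are shown because they belong to 4 genes whose mRNA the results turn on, the desaturase SCD, INSIG1, SREBF2 and ABCA1. Capitals mark the letters of 3 motifs searched on both strands, CCAAT (the box read by NF-Y, ATTGG when read from the other strand), CACGTG (the E-box, which reads the same on both strands) and TCACNCCAC (a sterol regulatory element). SCD is on the plus strand at chr10:100346989-100347066, INSIG1 on the plus strand at chr7:155297693-155297843, SREBF2 on the plus strand at chr22:41832957-41833018 and ABCA1 on the minus strand at chr9:104928282-104928317.
SCD: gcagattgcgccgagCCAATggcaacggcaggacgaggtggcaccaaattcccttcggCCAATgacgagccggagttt
INSIG1: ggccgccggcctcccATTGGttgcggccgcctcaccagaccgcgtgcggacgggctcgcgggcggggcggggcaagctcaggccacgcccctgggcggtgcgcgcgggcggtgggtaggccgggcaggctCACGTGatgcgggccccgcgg
SREBF2: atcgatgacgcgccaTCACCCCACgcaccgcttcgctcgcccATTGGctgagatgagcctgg
ABCA1: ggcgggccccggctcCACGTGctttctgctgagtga

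The first marked letters start 229 bases before the start site in SCD, 170 in INSIG1, 133 in SREBF2 and 147 in ABCA1. The CCAAT box was in 26 of the 43 member promoters (60.5%), against 34.6% of all 35116 promoters in the table. By gene it was in 5 of 6 mevalonate genes, 8 of 9 sterol genes, 5 of 8 fatty acid genes, 2 of 5 regulators and 2 of 4 transport genes that had an entry. The E-box was in 6 member promoters (14%, against 7.26% of all), and the sterol regulatory element as spelled here was in 1, that of SREBF2 (2.33%, against 1.13% of all). In IDI1 and NSDHL 1 pair of matches each overlapped. A match is a run of letters and not a binding site, and binding was not measured.

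The libraries held 15707587 to 24796539 counts. Replicates differed by more than counting noise in all 8 groups (chi-square per degree of freedom 2.08 to 21.2, highest in the TAK-981 and Dex groups of MM1S), so no library repeats another. Of 8 plasma cell markers examined, CD38 was at 6.74 to 44.9 CPM (counts per 1e6 counts after TMM scaling) and the other 7 at 146 CPM or more, among them SDC1 at 495 to 972 and IRF4 at 514 to 1470. The labels also name the cells B lymphoblasts, but the B cell markers MS4A1, PAX5 and CD22 had at most 11 counts in any library. The summed level of the plasma cell list was 4700 to 4750 CPM in vehicle-treated MM1S and 3370 to 3520 in combo-treated MM1S, and the noncoding RNA MALAT1 took from 2.85% to 6.17% of the counts, with its higher values in the TAK-981 and combo libraries. What part these shifts have in the results below was not tested. In bulk RNA, fewer cells that express a gene and less of its RNA per cell cannot be told apart.

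Under vehicle, levels spread widely over the members, with 9 of the 37 below the median gene tested in MM1S and 8 in MM1R. Per length (RPKM, the CPM divided by gene length in kilobases), INSIG1 stood highest at 168 ± 2.22 in MM1S (SD, n = 2) and 187 ± 1.19 in MM1R, followed in MM1S by SCD at 161 ± 0.753 and by the farnesyl diphosphate synthase FDPS at 124 ± 3.56. The INSIG1 level exceeded that of 98.4% of the genes tested in MM1S and of 98.5% in MM1R. SREBF2, which encodes the family member tied to sterol synthesis, was at 70.6 ± 1.95 in MM1S and 70.7 ± 0.589 in MM1R, above SREBF1, which encodes the member tied to fatty acid synthesis, at 26.6 and 22.8. The delta-6 desaturase FADS2 was lowest at 1.46 ± 0.0827 and 1.07 ± 0.202, with ABCA1 at 3.71 and 1.27.

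**Figure D1:**
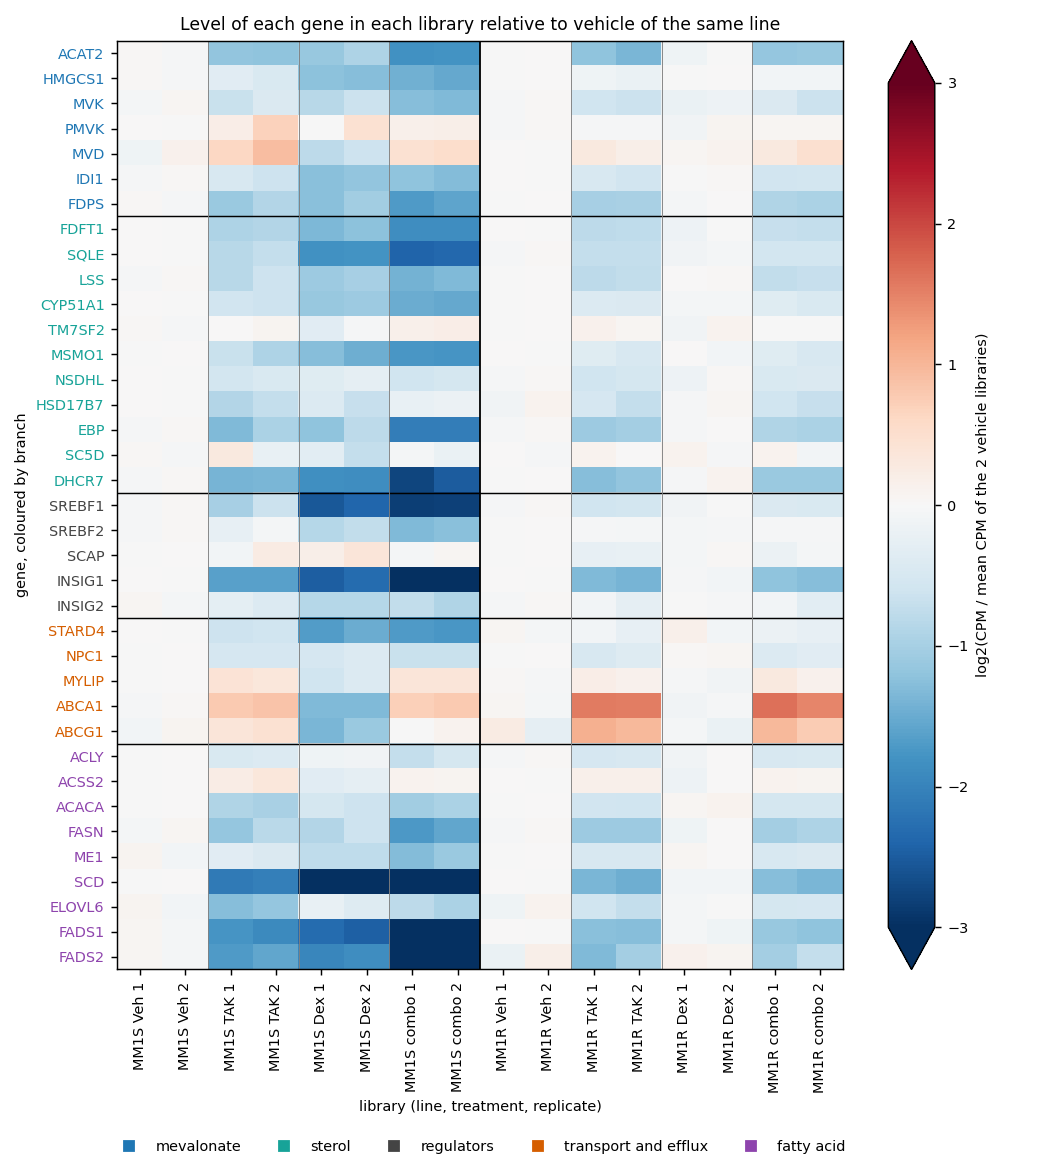
Colour gives log2 of the CPM of each of the 37 genes (rows, grouped and coloured by branch) in each of the 16 libraries (columns) over the mean CPM of the 2 vehicle libraries of the same line, and values beyond 3 in either direction take the end colours. In MM1S the rows are mostly blue under TAK-981, Dex and combo, in MM1R they are blue under TAK-981 and combo and nearly white under Dex, and ABCA1 and ABCG1 are red under TAK-981 in both lines.

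The summed level of all 37 genes shows the shape of the response. In MM1S it was 1207 and 1211 RPKM under vehicle, 670.8 and 736.4 under TAK-981, 520.5 and 578.9 under Dex, and 430.8 and 446.3 under combo, so no 2 treatments overlapped. In MM1R it was 1341 and 1356 under vehicle, 825.1 and 811.4 under TAK-981, 1295 and 1330 under Dex, and 862.5 and 845.7 under combo. There the TAK-981 and combo libraries lay far below the vehicle and Dex libraries, and the Dex libraries just below vehicle.

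TAK-981 lowered most of the program in both lines. In MM1S, 27 of the 37 genes fell and 6 rose at an adjusted p under 0.05 (edgeR's quasi-likelihood F test over all 14215 genes, used throughout), with a median log2 fold change of −0.60, while 23.7% of all genes fell and 25.2% rose around a median of 0.04. In MM1R, 26 fell and 2 rose with a median of −0.53, against 27.6% and 25.8% of all genes around a median of 0.00. Of the member genes that fell, 25 were called in both lines, 92.6% of those in MM1S and 96.2% of those in MM1R. The same overlap over all genes is not given here, so these shares are not read as particular to the members. INSIG2 and the sterol carrier STARD4 were called in MM1S alone and SCAP in MM1R alone, and the test of the difference between the lines called none of these 3 as fitted here. That test did call STARD4 with library size only, and STARD4 and SCAP without the filter on low counts, with the replicate block and without the first MM1S TAK-981 library.

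By branch, the fall under TAK-981 was deepest in the fatty acid genes and absent as a whole from transport. In MM1S, 8 of 9 fatty acid genes fell (median log2 fold change −0.98), 9 of 11 sterol genes (−0.77), 5 of 7 mevalonate genes (−0.54), 3 of 5 regulators (−0.35) and 2 of 5 transport genes (0.37). The same counts of fatty acid, sterol, mevalonate and regulator genes fell in MM1R, with medians of −0.65, −0.61, −0.53 and −0.24. The 6 that rose in MM1S were ABCA1, ABCG1, MYLIP, the mevalonate enzymes MVD and PMVK, and ACSS2, which makes acetyl-CoA from acetate. The ACSS2 call was lost without the second TAK-981 library. In MM1R the 2 were ABCA1 and ABCG1.

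SCD, which puts the first double bond into saturated fatty acids, led the fall (chromosome 10, 102106772 to 102124588, plus strand; gene positions are those of the table, for which the submitters' processing notes name hg19). It was at 875.9 and 881.7 CPM in the MM1S vehicle libraries and at 200.8 and 212.9 under TAK-981. In MM1R it went from 785.5 and 770.8 CPM to 301.1 and 284.2. Treated and vehicle libraries were thus far apart in each line, at 23.5% and 37.6% of the vehicle mean. The TAK-981 effect was −2.09 on the log2 scale in MM1S (standard error 0.0695, adjusted p = 1.08e-13) and −1.41 in MM1R (0.0679, 1.18e-11). FADS1, the delta-5 desaturase that acts on polyunsaturated fatty acids, followed at −1.84 and −1.27, though its gene overlaps FADS2 on the opposite strand. FASN, which assembles palmitate, fell by 0.98 and 1.09 and ACACA, which supplies its malonyl-CoA, by 0.93 and 0.58 on the log2 scale. FADS2 fell by 1.62 and 1.15 and the elongase ELOVL6 by 1.21 and 0.65. ACLY and the malic enzyme ME1, which feed the pathway with acetyl-CoA and NADPH, fell by between 0.39 and 0.50. ME1 went from 43.97 and 39.05 CPM to 32.82 and 30.72 in MM1S and from 68.45 and 70.27 to 49.32 and 49.34 in MM1R, without overlap.

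Among the regulators, INSIG1 fell most (chromosome 7, 155089486 to 155101945, plus strand). Its level was 521.8 and 512.1 CPM under vehicle and 166.3 and 168 under TAK-981 in MM1S, and 577.9 and 572.8 against 229.4 and 217.3 in MM1R. The groups did not overlap, and the log2 fold changes were −1.63 (standard error 0.06, adjusted p = 3.85e-13) and −1.37 (0.0593, 2.54e-12). SREBF1 (chromosome 17, 17714663 to 17740325, minus strand) went from 151.6 and 160.1 CPM to 77.88 and 100.3 in MM1S and from 130.6 and 136.1 to 88.82 and 90.8 in MM1R. Its log2 fold changes were −0.81 and −0.57 (adjusted p = 2.75e-07 and 1.77e-05), and the 2 TAK-981 libraries of MM1S stood further apart than those of MM1R.

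SREBF2 did not pass the test in either line (chromosome 22, 42229106 to 42302375, plus strand). It was at 332.3 and 345.6 CPM under vehicle and 286.1 and 325.3 under TAK-981 in MM1S, and at 337.5 and 341.5 against 328.7 and 324 in MM1R. The treated libraries were slightly lower each time, by a log2 fold change of −0.15 (standard error 0.0625, adjusted p = 0.0565) and −0.06 (0.0623, 0.464), and the MM1S value passed the threshold under RLE scaling, library size only, DESeq2 and the replicate block. SCAP was at 91.88 and 93.73 CPM under vehicle and 87.37 and 110.3 under TAK-981 in MM1S, which overlap, and at 109.2 and 110 against 92.04 and 93.66 in MM1R (log2 fold change −0.24, adjusted p = 0.0286). INSIG2, the second INSIG, was at 72.86 and 67.03 CPM against 56.83 and 52.64 in MM1S (−0.35, adjusted p = 0.00211) and at 45.67 and 48.14 against 44.54 and 39.1 in MM1R (−0.17, adjusted p = 0.119). In MM1R the calls of SCAP and of HMGCS1 were lost whichever of the 4 libraries was left out.

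**Figure D2:**
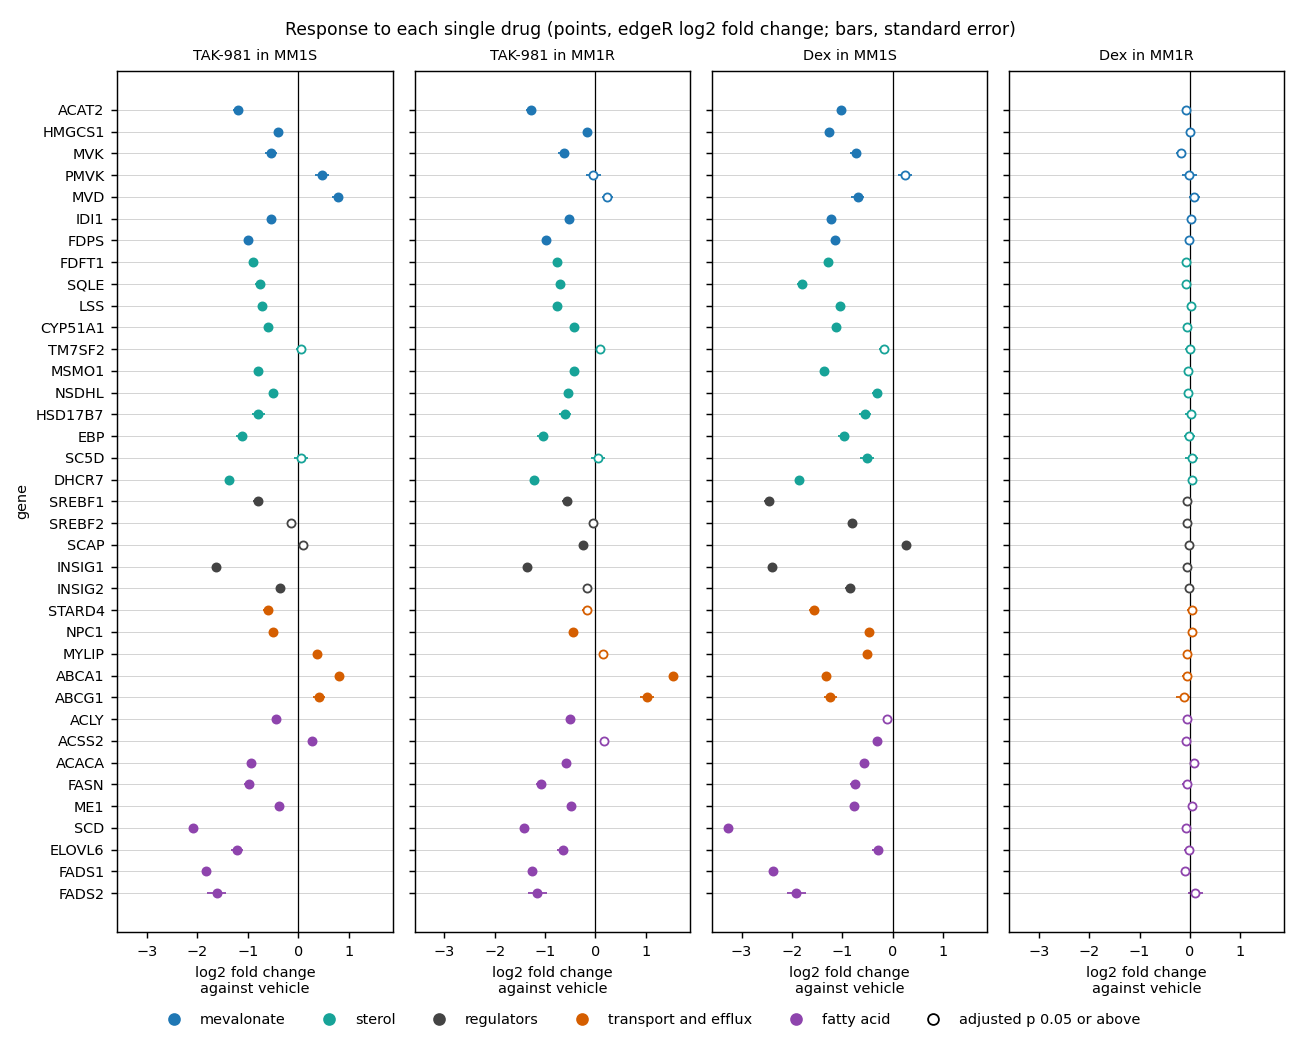
Points are edgeR log2 fold changes against vehicle of the same line and bars their standard errors for the 37 genes (rows, coloured by branch) under TAK-981 and Dex in MM1S and MM1R, and open points did not pass an adjusted p of 0.05. Most points lie left of 0 in the first 3 panels, ABCA1 and ABCG1 lie right of 0 under TAK-981 and left of 0 under Dex in MM1S, and all points of the fourth panel are open and lie between −0.17 and 0.11.

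In the mevalonate branch ACAT2, a cytosolic thiolase at its entry whose gene overlaps TCP1 on the opposite strand, fell most. It went from 27.29 and 26.14 CPM to 11.77 and 11.63 in MM1S and from 41.41 and 42.7 to 18.3 and 16.3 in MM1R. The groups were well apart, with log2 fold changes of −1.19 (standard error 0.0939, adjusted p = 6.17e-09) and −1.28 (0.086, 1.02e-09). HMGCS1, the HMG-CoA synthase (chromosome 5, 43287572 to 43313614, minus strand), moved much less, from 89.72 and 85.43 CPM to 69.53 and 63.55 in MM1S and from 132.8 and 133.2 to 120.9 and 116.6 in MM1R, or −0.40 and −0.16 on the log2 scale (adjusted p = 2.73e-05 and 0.0241). FDPS fell by 0.99 and 0.98, and the isomerase IDI1 and the kinase MVK by between 0.53 and 0.63. The kinase PMVK and the decarboxylase MVD, which act next to each other in this pathway, rose in MM1S by 0.47 (adjusted p = 0.0141) and 0.79 (1.04e-05). The PMVK call was lost when either MM1S vehicle library or the second TAK-981 library was left out, and in MM1R the values were −0.04 and 0.24, neither past the test.

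In the sterol branch DHCR7, the 7-dehydrocholesterol reductase that ends the path to cholesterol (chromosome 11, 71145457 to 71159477, minus strand), fell most. It was at 54.49 and 56.68 CPM under vehicle and 21.26 and 21.51 under TAK-981 in MM1S, and at 71.38 and 72.83 against 29.89 and 31.76 in MM1R. The drop was about as deep in each line, −1.38 (standard error 0.0774, adjusted p = 7.07e-11) and −1.23 (0.0734, 2.36e-10). The isomerase EBP fell by 1.12 and 1.05. SQLE, the squalene epoxidase and a rate-limiting step of the branch, went from 19.26 and 18.65 CPM to 10.73 and 11.58 in MM1S and from 40.22 and 42.58 to 25.33 and 25.36 in MM1R, without overlap (−0.77 and −0.71 on the log2 scale). The squalene synthase FDFT1, the cyclase LSS, the demethylation enzymes CYP51A1, MSMO1 and NSDHL, and HSD17B7 fell in both lines by between 0.42 and 0.90. TM7SF2, a sterol reductase, and the desaturase SC5D did not pass the test in either line, with values from 0.05 to 0.09.

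ABCA1, which exports cholesterol to apolipoproteins, went the other way (chromosome 9, 107543284 to 107690527, minus strand). It was at 38.71 and 40.54 CPM under vehicle and 67.77 and 71.21 under TAK-981 in MM1S, and at 14.09 and 13.07 against 39.71 and 39.49 in MM1R. All treated libraries lay above their vehicle libraries, at 175% and 292% of the vehicle mean. The log2 fold changes were 0.81 (standard error 0.0743, adjusted p = 4.59e-08) and 1.54 (0.0832, 5.63e-11). ABCG1, the exporter to mature lipoproteins, rose by 0.41 and 1.02 (adjusted p = 0.00833 and 8.32e-06), though the MM1S call was lost without the first vehicle library. MYLIP rose by 0.37 in MM1S (adjusted p = 0.000447) and was at 0.16 in MM1R (0.0691). NPC1, which moves cholesterol out of lysosomes, fell by 0.51 and 0.44, and STARD4 fell by 0.60 in MM1S and was at −0.17 in MM1R (adjusted p = 0.126).

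The difference between the lines in the TAK-981 response was tested as an interaction, and 4 members passed, all with a higher value in MM1R (3.19% of all genes passed in that direction and 0.978% in the other). On the log2 scale ABCA1 rose more in MM1R, by a difference of 0.73 (adjusted p = 0.000972). Its vehicle level was lower there, and its mean went from 13.6 to 39.6 CPM in MM1R and from 39.6 to 69.5 in MM1S. SCD, FADS1 and ACACA fell less in MM1R, by differences of 0.68 (0.000516), 0.57 (0.00665) and 0.35 (0.0221). The ACACA difference was lost in 7 of the 8 fits that leave out 1 library, all but that without the first MM1S TAK-981 library, and the FADS1 difference was lost without the first MM1S vehicle library. The other 33 did not pass, with differences from −0.55 for MVD to 0.61 for ABCG1. Among them INSIG1 passed with library size only, the replicate block and DESeq2, and SREBF1 with the replicate block and without the second MM1S TAK-981 library. MVD and SCAP passed without the filter on low counts and with the replicate block, and PMVK without the filter. As fitted here all of these last had lower values in MM1R, so the single direction depended on the setting. HMGCS1, MSMO1, STARD4, ABCG1 and ELOVL6, with higher values there, also passed under either or both of these settings. The count ran from 2 without the first MM1S vehicle library to 11 without the first MM1S TAK-981 library. The ABCA1 and SCD differences passed with any 1 library left out.

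Dex lowered nearly the whole program in MM1S. There 33 of the 37 genes fell and 1, SCAP, rose, with a median log2 fold change of −0.97, while 21.5% of all genes fell and 20.8% rose around a median of 0.01. All 5 transport genes, 10 of 11 sterol genes, 6 of 7 mevalonate genes, 8 of 9 fatty acid genes and 4 of 5 regulators fell, with branch medians of −1.24, −1.05, −1.02, −0.75 and −0.85. PMVK, TM7SF2 and ACLY were not called, at 0.25 (adjusted p = 0.185), −0.18 (0.172) and −0.12 (0.137). The calls of SC5D and ELOVL6 were lost without the first vehicle library and without the second Dex library, and that of SCAP without either vehicle library or the second Dex library. 

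The deepest falls were again in desaturation and in INSIG1, and here also in SREBF1, which had not been among the deepest under TAK-981. SCD was at 89.89 and 92.55 CPM under Dex in MM1S, 10.4% of its vehicle mean, with a log2 fold change of −3.27 (standard error 0.0736, adjusted p = 2.51e-16). FADS1 fell by 2.37 (adjusted p = 1.21e-13) and FADS2 by 1.91 (2.01e-07). FASN, ACACA and ELOVL6, which build the saturated chain, fell by only 0.75, 0.57 and 0.30, and ACSS2 by 0.31. ME1 was at 43.97 and 39.05 CPM under vehicle and 24.3 and 24.6 under Dex, a log2 fold change of −0.76 without overlap.

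SREBF1 was at 26.89 and 29.79 CPM under Dex in MM1S, 18.2% of its vehicle mean, with a log2 fold change of −2.46 (standard error 0.093, adjusted p = 3.85e-13). INSIG1 was at 93 and 104.3 CPM, 19.1% of vehicle, at −2.39 (0.062, 1.88e-15). SREBF2 fell less, to 187.5 and 202.4 CPM and −0.80 (0.0632, 8.9e-09). For all 3 the Dex libraries lay far below both vehicle and TAK-981 libraries. INSIG2 was at 38.81 and 38.71 CPM and fell by 0.85 (adjusted p = 2.78e-07). SCAP was at 105.5 and 118.7 CPM, above both vehicle libraries, with a rise of 0.27 (adjusted p = 0.0186).

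Among the enzymes of the sterol path, DHCR7 was at 15.44 and 15.27 CPM under Dex in MM1S and SQLE at 5.388 and 5.444, log2 fold changes of −1.86 (standard error 0.0804, adjusted p = 2.62e-12) and −1.81 (0.0959, 5.16e-11). Both were below their TAK-981 levels. HMGCS1 was at 37.41 and 35.99 CPM, or −1.26 on the log2 scale (0.0636, 2.7e-11), where the fall under TAK-981 had been slight. MSMO1, FDFT1, IDI1, FDPS, CYP51A1, LSS and ACAT2 fell by between 1.02 and 1.36, and ACAT2 was at 12.12 and 14.17 CPM. EBP, MVK, MVD, HSD17B7, SC5D and NSDHL fell by between 0.32 and 0.97. MVD, which had risen under TAK-981, thus fell by 0.69 (adjusted p = 0.00019).

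The exporters also changed direction. ABCA1 was at 15.85 and 15.78 CPM under Dex in MM1S, 39.9% of its vehicle mean, a log2 fold change of −1.32 (standard error 0.0836, adjusted p = 4.53e-10). ABCG1 fell by 1.24 (adjusted p = 6.85e-07), MYLIP by 0.50 (3.5e-05), STARD4 by 1.57 (4.73e-10) and NPC1 by 0.46 (1.07e-05). ABCA1, ABCG1 and MYLIP, the 3 LXR targets that rose under TAK-981 in this line, were all below vehicle under Dex. SREBF1, also named above as an LXR target, fell under both drugs in MM1S, with log2 fold changes of −0.81 under TAK-981 and −2.46 under Dex.

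In MM1R, Dex changed 0 of the 37 genes, and 0% of all genes passed the test in either direction. At an unadjusted p under 0.05 the counts were 0 of the 37 and 395 of 14215, and DESeq2 also called 0 members. The log2 fold changes ran from −0.17 for MVK to 0.11 for FADS2, with a median of −0.02, against −0.01 over all genes. SCD was at 735.6 and 729.3 CPM, just below its 2 vehicle libraries, INSIG1 at 564 and 540.8, also below, SREBF1 at 123.8 and 131.3, overlapping vehicle, and ABCA1 at 12.71 and 13.31, overlapping as well. SREBF2 was at 323.9 and 331.2 CPM, SCAP at 104.9 and 112.5, INSIG2 at 46.88 and 45.64, HMGCS1 at 132.8 and 134.7, DHCR7 at 70.86 and 76.97, SQLE at 38.4 and 39.62, ACAT2 at 38.49 and 41.63 and ME1 at 72.39 and 69.38. Some of these pairs overlapped vehicle and the others lay just beside it.

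The Dex response itself differed between the lines for 30 of the 37 genes, each with a higher value in MM1R, against 15% of all genes in that direction and 13.1% in the other. The difference was largest for SCD at 3.18 (standard error 0.0973, adjusted p = 5.26e-14), SREBF1 at 2.39, INSIG1 at 2.33, FADS1 at 2.28 and FADS2 at 2.02. PMVK, TM7SF2, NSDHL, SCAP, ACLY, ACSS2 and ELOVL6 did not pass, with differences from −0.28 to 0.28. The SC5D difference, 0.54 (adjusted p = 0.0485), was lost without any 1 of 7 of the 8 libraries, the exception being the first Dex library of MM1S, and the HSD17B7 difference was lost without any of 4 of them.

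**Figure D3:**
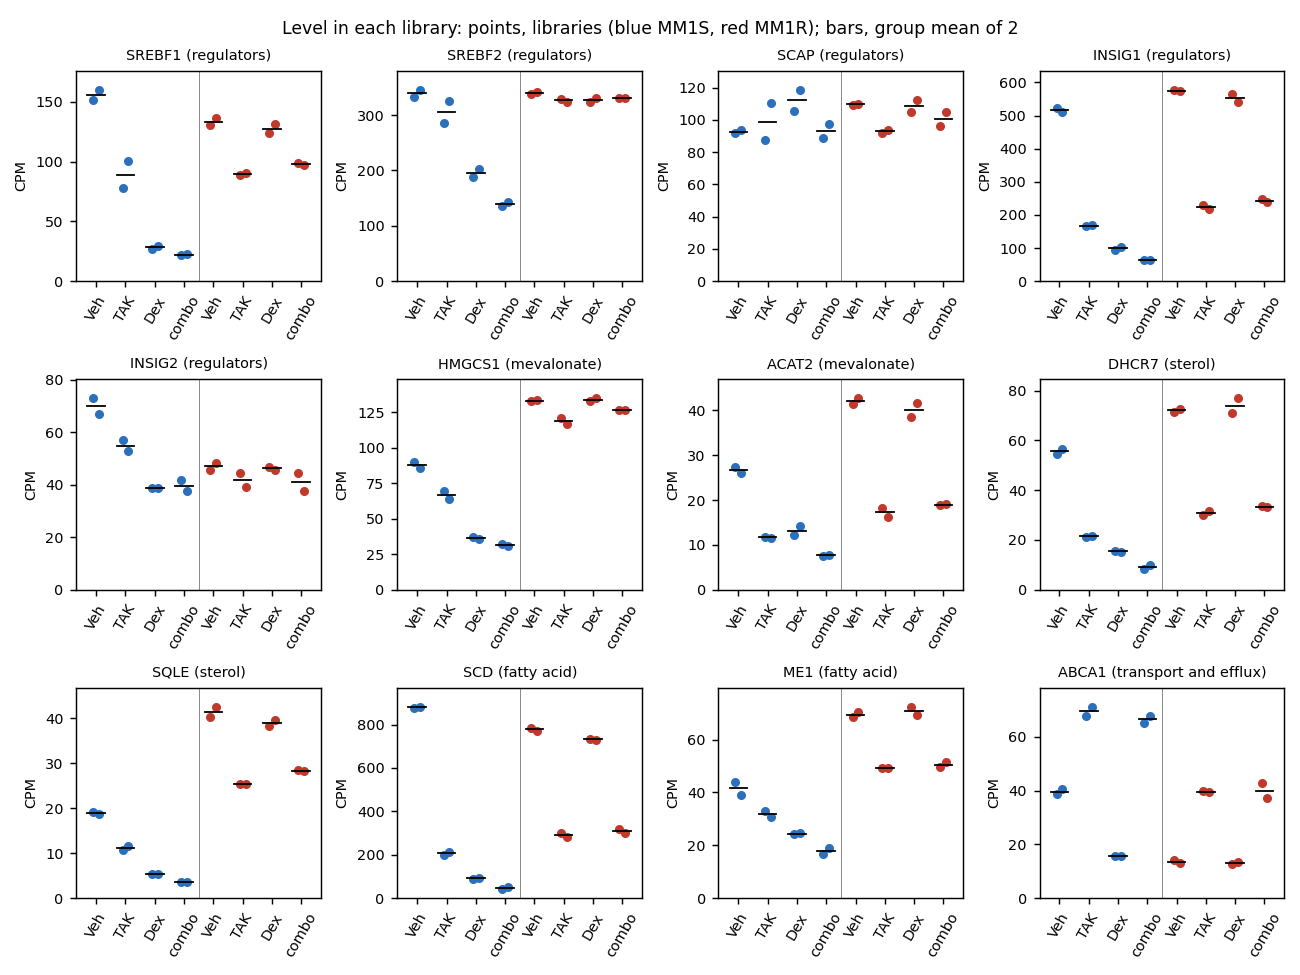
Points are the CPM of each library and bars the mean of the 2 libraries of a group, for the 5 regulators and the leading genes of each branch in vehicle, TAK-981, Dex and combo of MM1S (blue) and MM1R (red), on linear axes that start at 0. INSIG1, SCD and DHCR7 step down from vehicle through TAK-981 and Dex to combo in MM1S, in MM1R the Dex points stand with vehicle and the combo points with TAK-981, and ABCA1 is high under TAK-981 and combo in both lines.

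By median and summed level combo in MM1S lowered the program furthest, though Dex alone lowered more genes (33). The transport branch was an exception, with a median log2 fold change of 0.05 under combo and −1.24 under Dex. Against vehicle 27 genes fell and 3 rose, with a median log2 fold change of −1.28, against 29.5% and 30.8% of all genes around a median of 0.04. SCD was at 44.33 and 53.64 CPM, 5.57% of vehicle, with a log2 fold change of −4.16 (standard error 0.0778, adjusted p = 7.38e-18). FADS1 at 5.139 and 6.541 CPM and FADS2, with 6 and 5 counts, both stood at −4.17 (adjusted p = 1.52e-16 and 2.26e-10). INSIG1 at 63.9 and 63.65 CPM was at −3.02, SREBF1 at 21.92 and 22.53 CPM at −2.81, DHCR7 at 8.297 and 9.783 CPM at −2.61, and SQLE at 3.591 and 3.682 CPM at −2.38. Each of these lay below its vehicle, TAK-981 and Dex libraries alike. SREBF2 reached 135.7 and 143.2 CPM (−1.28), HMGCS1 32.32 and 30.39 (−1.48), ACAT2 7.616 and 7.695 (−1.80), and ME1 16.84 and 19.07 (−1.21), also the lowest group of each. SCAP was at 88.85 and 97.34 CPM and INSIG2 at 41.79 and 37.48, which overlapped vehicle and Dex respectively. The 3 that rose were ABCA1, MVD and MYLIP, by 0.75, 0.50 and 0.37.

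Against Dex alone, combo in MM1S had 25 genes lower and 8 higher (25.4% and 22.2% of all genes). Among the lower, the calls of NSDHL and NPC1 were lost in 3 of the 4 fits that leave out 1 library. Those of HMGCS1, SREBF1 and SCAP were lost in 2, and that of NSDHL also with DESeq2. The largest differences downward were those of FADS2 at −2.26 and FADS1 at −1.79 on the log2 scale, and SCD was at −0.89. The 8 that were higher were ABCA1, ABCG1, MVD, MYLIP, ACSS2, SC5D, HSD17B7 and TM7SF2. ABCA1, at 65.38 and 67.77 CPM, was 4.21-fold above Dex (log2 2.07, standard error 0.0823, adjusted p = 1.12e-12), and the calls of SC5D and HSD17B7 were lost without the second Dex library or either combo library, and that of TM7SF2 without the first Dex or the second combo library. Against TAK-981 alone, 24 genes were lower and 1, HSD17B7, was higher (20.6% and 14.5% of all genes). The log2 difference was −2.55 for FADS2, −2.33 for FADS1, −2.08 for SCD and −2.0 for SREBF1. ABCA1 did not pass that test, at −0.06, with combo libraries at 65.38 and 67.77 CPM against TAK-981 libraries at 67.77 and 71.21.

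A test of whether combo departed from the sum of the single-drug log2 changes in MM1S passed for 19 members. For 18 the combo value lay above the sum and for 1, SREBF2, below it (5.47% and 9.48% of all genes). Above the sum means a smaller fall, a larger rise or, as for ABCA1, a rise where the sum was a fall. The vehicle, TAK-981 and Dex groups all enter this contrast. ABCA1 had the largest value, 1.26 (standard error 0.111, adjusted p = 5.93e-07), followed by SCD at 1.19 (0.0996, 3.89e-07), HSD17B7 at 1.15 (0.183, 0.000393) and INSIG1 at 1.00 (0.086, 5.18e-07). Of the transport genes 5 of 5 passed, though STARD4 and NPC1 were each lost in 6 of the 8 fits that leave out 1 library and when only the groups compared were fitted, STARD4 also with DESeq2 and NPC1 also without the filter. In the synthesis branches 5 of 11 sterol, 3 of 9 fatty acid and 2 of 7 mevalonate genes passed. SREBF2 was at −0.33 (adjusted p = 0.0176). For FADS1 the interaction was 0.04 (standard error 0.146, adjusted p = 0.875), so its deep fall in combo was near the sum of its falls under each drug, and for SQLE, ME1 and FASN it was 0.19, −0.06 and 0.10, none past the test. With 1 library left out the SREBF2 call was lost in 4 of the 8 fits, those of MSMO1 and INSIG2 in 6, that of SREBF1 in 5 and that of ELOVL6 in 3. All of these were also lost when only the groups compared were fitted.

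**Figure D4:**
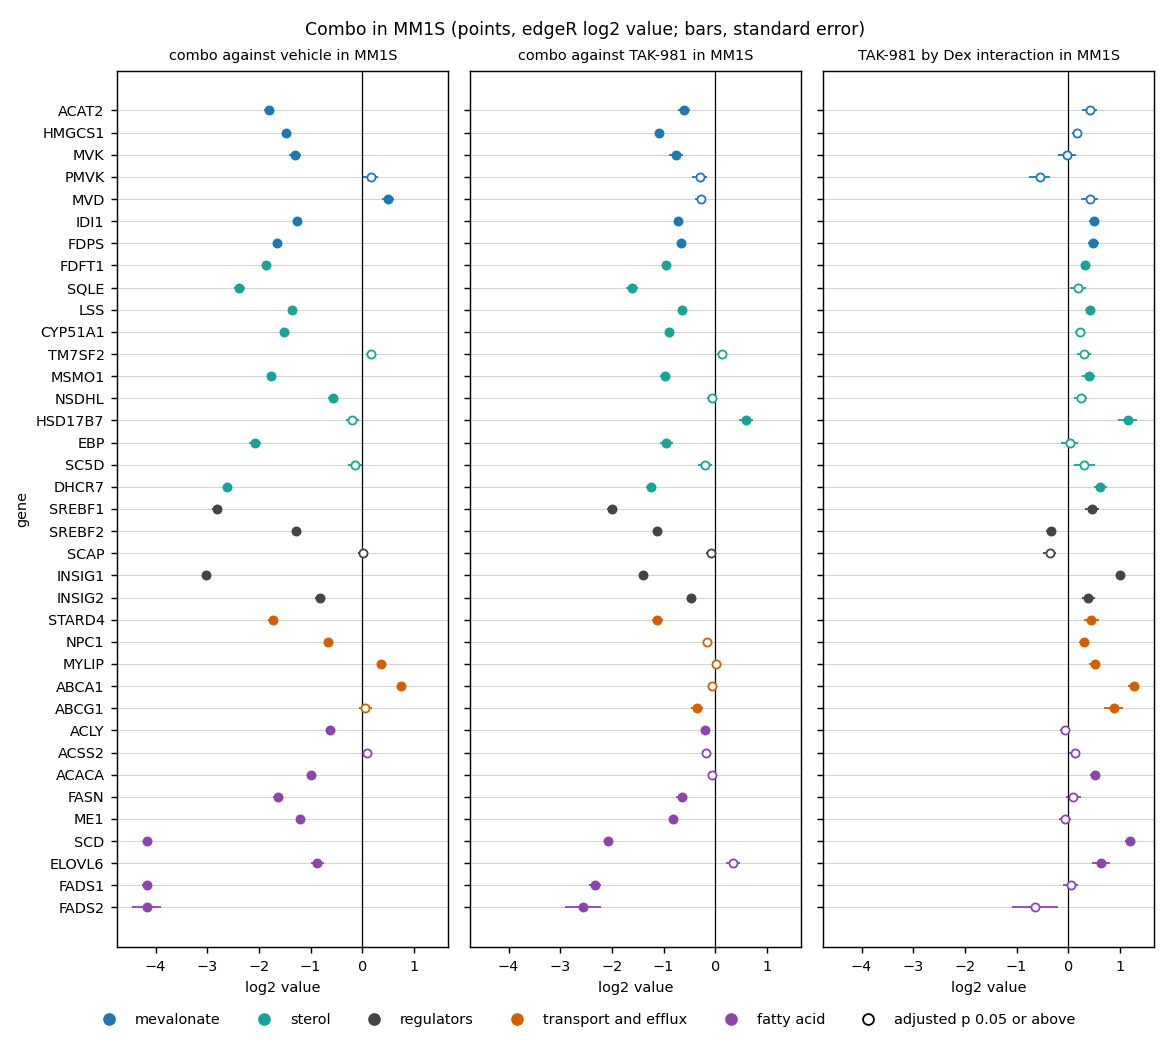
Points are edgeR log2 values and bars their standard errors for the 37 genes in MM1S, for combo against vehicle, combo against TAK-981 and the TAK-981 by Dex interaction, and open points did not pass an adjusted p of 0.05. SCD, FADS1 and FADS2 lie near −4.17 in the first panel, and in the third ABCA1, SCD, HSD17B7 and INSIG1 lie furthest to the right of 0.

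In MM1R, combo gave the picture of TAK-981 alone. Against vehicle 24 genes fell and 4 rose (26.7% and 24.8% of all genes), with a median of −0.46, and against Dex 25 were lower and 4 higher (25.3% and 23.1%), with a median of −0.42. The 4 that rose, ABCA1, ABCG1, MVD and MYLIP, were the same in both comparisons, which share the combo libraries. Against vehicle the MYLIP call was lost without the second vehicle or the first combo library and the MVD call without the second combo library, and against Dex the MVD call held only without the first combo library. Against TAK-981, 0 members and 0% of all genes differed in either direction. At an unadjusted p under 0.05 these counts were 1 and 214. SCD was at 319.2 and 301.6 CPM, INSIG1 at 247.6 and 237.5, SREBF1 at 99.04 and 97.11 and ABCA1 at 42.68 and 37.27, near the TAK-981 libraries and far from vehicle. SREBF2, at 330.3 and 329.9 CPM, SCAP, at 96.37 and 104.6, and INSIG2, at 44.5 and 37.75, did not pass against vehicle, and HMGCS1, at 126.3 and 126.4, did not either. ACAT2 at 18.88 and 19.11 CPM, DHCR7 at 33.45 and 33.37, SQLE at 28.47 and 28.26 and ME1 at 49.66 and 51.42 all lay below vehicle.

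The lines already differed under vehicle. In MM1R 17 of the 37 genes were higher than in MM1S and 8 were lower, with a median log2 difference of 0.13, against 25.6% and 22.6% of all genes around a median of 0.01. Among enzymes of sterol synthesis the calls went in a single direction, with 4 of 7 mevalonate and 5 of 11 sterol genes higher and 0 lower. SQLE was higher by 1.13 (standard error 0.0744, adjusted p = 1.26e-09), NSDHL by 0.88, ACAT2 by 0.65, FDFT1 by 0.60, HMGCS1 by 0.60 and DHCR7 by 0.38. In the fatty acid branch ME1 was higher by 0.74 (0.073, 2.21e-07) and FASN by 0.71 (1.73e-05), while the desaturases SCD, FADS1 and FADS2 were at −0.18, −0.42 and −0.45. The exporters were the lowest in MM1R relative to MM1S, ABCA1 with a log2 difference of −1.54 (0.083, 7.9e-11) and ABCG1 of −1.53 (0.136, 5.56e-08). INSIG2 was at −0.58 (adjusted p = 2.48e-05) and STARD4 at −0.40, and MYLIP was higher by 0.42. SREBF2 stood level, at 0.00 (standard error 0.0623, adjusted p = 0.98). The calls of FDPS, SREBF1, SCAP, INSIG1 and SCD were lost whichever of the 4 libraries was left out. That of ACLY was lost in 3 of these 4 fits and that of FADS2 in 2, and those of FADS2 and SREBF1 also with DESeq2. No batch label sets the lines apart from how they were handled, and line and handling cannot be told apart.

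**Figure D5:**
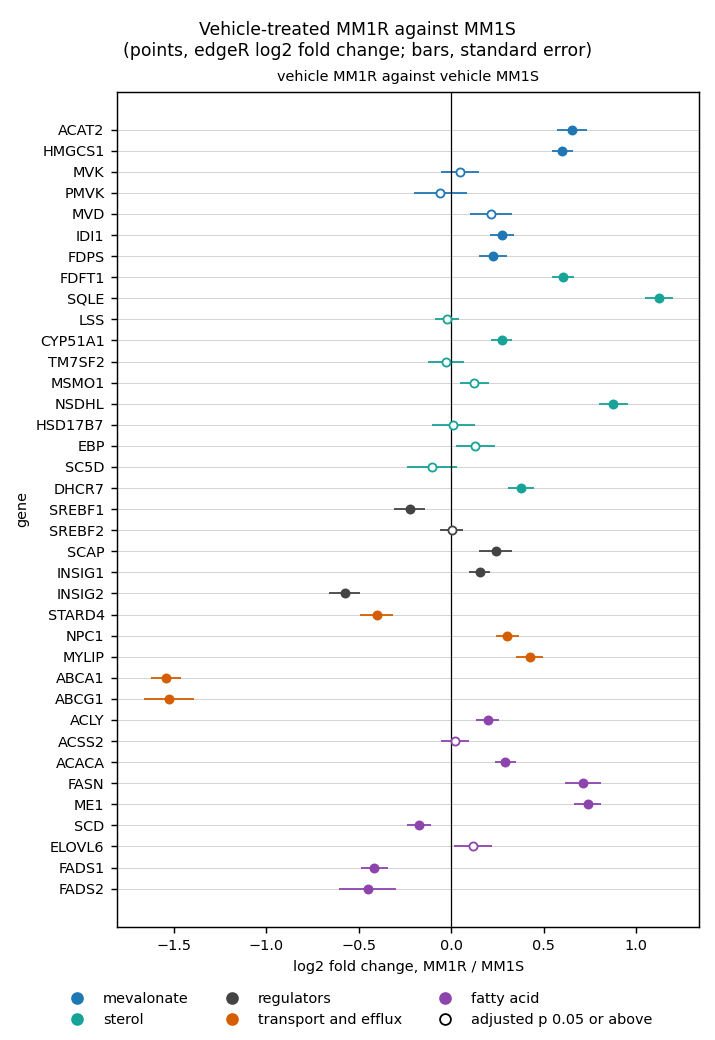
Points are edgeR log2 fold changes of vehicle-treated MM1R over vehicle-treated MM1S and bars their standard errors for the 37 genes, coloured by branch, with open points for those that did not pass an adjusted p of 0.05. SQLE lies furthest right at 1.13, and ABCA1 and ABCG1 furthest left at −1.54 and −1.53.

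Other genes of lipid metabolism that the list leaves out were read from a second list of 51, of which 50 were in the table and tested. TAK-981 lowered 27 and raised 6 of them in MM1S and lowered 26 and raised 3 in MM1R, with medians of −0.31 and −0.28, where 23.7% and 25.2% of all genes fell and rose in MM1S and 27.6% and 25.8% in MM1R. Dex lowered 20 and raised 3 in MM1S (median −0.19), against 21.5% and 20.8% of all genes, and changed 0 in MM1R. TMEM97, a membrane protein that binds sterols, fell by 1.20 and 1.01 under TAK-981 in the 2 lines, and the second stearoyl-CoA desaturase SCD5 by 1.59 and 1.01. Under Dex in MM1S, ACSL3, which activates fatty acids, fell by 1.23, and MID1IP1, which activates acetyl-CoA carboxylase, by 1.20. Of 10 isoprenoid genes that branch off the mevalonate pathway, 3 fell (30%) and 2 rose (20%) under TAK-981 in MM1S and 1 fell and 1 rose (10% each) under Dex. Of 7 genes of SREBP cutting and turnover, 2 fell (28.6%) and 1 rose (14.3%) under TAK-981 there and 1 fell and 1 rose (14.3% each) under Dex. With so few genes, the falls in both groups under TAK-981 were near the share of all genes and those under Dex below it.

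Some counts may hold reads of a neighbour. The table does not say whether strand was used in counting, and FADS1 and FADS2 overlap by 802 bases on opposite strands, with mean counts of 1031 and 61.4, so their values may not be separate. ACAT2 overlaps TCP1 by 558 bases on the other strand, and TCP1 had the higher mean count, 2726.1 against 480.1. IDI1 overlaps WDR37 by 7167 bases, NPC1 overlaps C18orf8 by 3409 and ABCA1 overlaps NIPSNAP3B by 9892 on the other strand, the last with a mean count of only 40.2. SREBF1 and SREBF2 host MIR33B and MIR33A. FDPS, HSD17B7 and other enzyme genes have pseudogene copies that may take or give reads.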

How the data were processed

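The authors deposited 1 table with a raw whole-number read count per gene and library, which was used as deposited. The submitters' processing notes name bcl2fastq 2.18.0.12, STAR 2.6.0, HTSeq 0.6.0, edgeR 3.28.1 and hg19, without giving their roles. Use of strand in counting is not given in the sources used here. Libraries were matched to the 8 groups by the sample labels. Genes were kept with filterByExpr (14215 of 23354), scaled with TMM and fitted with 1 term per group over all 16 libraries by edgeR's robust quasi-likelihood fit, which left 8 residual degrees of freedom. Its F test was applied to 14 contrasts. A gene was called at a Benjamini-Hochberg adjusted p under 0.05 over all genes tested. Levels are CPM after TMM, and RPKM divides these by the table's gene length. The script was tested on simulated data.

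The members, the 51 related genes, the motifs and the tests were chosen with earlier results of these data known. All members are named. Values in every library are given for the 5 regulators and for the member of each branch with the smallest adjusted p under TAK-981 in each line, Dex in MM1S and between the vehicle-treated lines. Related genes are named at an adjusted p under 0.05 and a log2 fold change of 1 or more in size under either drug in either line. Some genes that these rules cover are not reported here. Same-numbered libraries deviated together only weakly over all genes (correlations of −0.013 to 0.263), so numbers were not taken as pairs. The highest value was between the TAK-981 and Dex groups of MM1S. There some members, PMVK and EBP among them, were higher in the second library of both groups, while others such as IDI1 moved in opposite directions. Alternatives were RLE scaling, library size only, no filter, the replicate block, only the groups compared, DESeq2, a minimum log2 fold change of 1 in size, and each library left out. The software was edgeR 4.0.16, limma 3.58.1 and DESeq2 1.42.0 in R 4.3.3.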

Additional observations from a re-analysis of the deposited data

Results flagged for a closer look

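With 2 libraries in each group no library could be tested as standing apart from its group. The results listed here are the genes whose drug response differed between the lines by the interaction test, each as the log2 response in MM1R minus that in MM1S, with edgeR's adjusted p under 0.05 over all genes. For TAK-981 these were ABCA1 at 0.73, SCD at 0.68, FADS1 at 0.57 and ACACA at 0.35. The ACACA call was lost in 7 of the 8 fits that leave out 1 library and the FADS1 call in 1, without the first MM1S vehicle library. Under Dex the SC5D call was lost in 7 of 8 and the HSD17B7 call in 4.

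For Dex, the mevalonate genes were HMGCS1 at 1.26, IDI1 at 1.23, FDPS at 1.12, ACAT2 at 0.95, MVD at 0.78 and MVK at 0.56. The sterol genes were DHCR7 at 1.89, SQLE at 1.72, MSMO1 at 1.33, FDFT1 at 1.21, LSS at 1.07, CYP51A1 at 1.06, EBP at 0.96, HSD17B7 at 0.56 and SC5D at 0.54. The regulators were SREBF1 at 2.39, INSIG1 at 2.33, INSIG2 at 0.83 and SREBF2 at 0.75. The transport genes were STARD4 at 1.60, ABCA1 at 1.26, ABCG1 at 1.11, NPC1 at 0.51 and MYLIP at 0.44. The fatty acid genes were SCD at 3.18, FADS1 at 2.28, FADS2 at 2.02, ME1 at 0.80, FASN at 0.69 and ACACA at 0.65. ABCA1, SCD, FADS1 and ACACA were flagged for both drugs. The comparisons of the 2 drugs share the vehicle libraries of each line.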

How the results depend on the processing

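No member was called in the opposite direction in any alternative run. Over the 14 comparisons, 41 of 1908 calls were lost under settings other than a minimum fold change and 139 of 1484 with 1 library left out. In the latter the lone library of a group was assumed to vary like the other groups. Asking also for a log2 fold change of 1 or more in size left 8 members for TAK-981 in MM1S, 10 in MM1R, 18 for Dex in MM1S, 6 for combo against vehicle in MM1R, 6 for combo against Dex in MM1S, 10 for combo against TAK-981 in MM1S, 6 for combo against Dex in MM1R, 0 for the TAK-981 response between lines, 17 for the Dex response between lines and 3 for the TAK-981 by Dex interaction. Between the vehicle-treated lines it left 3, and the larger direction reversed, with 1 higher and 2 lower, since most of the higher members differed by less. The share of all genes that passes this cutoff is not given here, so these counts are not read as particular to the members.

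The count for the TAK-981 response between lines was 4 as reported, 8 with library size only, 11 without the filter on low counts and 13 with the replicate block, and it ran from 2 to 11 with 1 library left out. The cause was not tested. The TAK-981 by Dex interaction had 19 members as reported and 9 when only the groups compared were fitted, which leaves fewer libraries for the spread, and it ran from 11 to 22 with 1 library left out. The replicate block moved no other member count by over 1.5 times, and with it Dex in MM1R still had 0. The shares of all genes called under these alternatives are not given here. Whether the shifts in count are particular to the members was not tested. Depth limits FADS2 most, with 5 to 130 counts per library.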
